A study of Mus musculus with 2 samples.

Results

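Immediate early genes are genes whose transcription starts within minutes of synaptic activity, growth factors or stress, without new protein synthesis. In neurons calcium entry and receptor signalling reach their promoters through kinases that act on transcription factors already bound there, such as CREB at cyclic AMP response elements (CRE) and SRF at CArG boxes. Their products are transcription factors that change later transcription, and effector proteins that act at synapses or shut the signal down. In the brain their transcripts are widely used as a record of recent cell activity. The 10 genes described here are the AP-1 subunits Fos, Fosb, Jun and Junb, the zinc finger factor Egr1, the nuclear receptor Nr4a1, the synaptic protein gene Arc, the MAP kinase phosphatase gene Dusp1, the nuclear protein gene Ier2 and the antiproliferative gene Btg2. They were chosen by name, as the probe sets whose only gene symbol in the platform annotation is one of these 10. This gave 12 of the 45101 probe sets on the array, 1 each for 8 genes and 2 each for Jun and Btg2, and 10 of 18194 named genes.

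The arrays measured 2 samples of the granule cell layer, the cell-dense inner layer of the cerebellar cortex, from 8-week-old C57BL/6J male mice that the labels call intact. Both form one untreated group, and no stimulated counterpart was analysed here, nor were the Purkinje cells that the design also names. Both titles name animal 1 and differ in the last digit, so the 2 samples (sample 1 and sample 2) may share an animal, and the spread between them may be technical. Brains were frozen in chilled isopentane, sectioned at 12 μm and laser-microdissected, and the arrays were made from roughly 1 ng of total RNA after 2 cycles of amplification, per the labels' protocols. The labels give neither the time of day nor the time from death to freezing.

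A value here is a signal intensity per probe set, in the array's own units on a linear scale. The background threshold of a sample is the 95th percentile of 81 measured genes typical of other organs, each by its brightest probe set. It was 14.4 in sample 1 and 18.7 in sample 2, and 3 of the 81 genes exceeded it in both. Probes differ in how well they bind and in how near they lie to the transcript's 3′ end, so members are set against the threshold and not ranked by abundance. All 14 measured granule neuron markers were above the threshold in both samples. Only 1 group was analysed here, so there is no comparison to test and no p-value is given.

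Of the 10 immediate early genes 7 were above the threshold in both samples by their brightest probe set, against 43.8% of all named genes. They were Fos, Dusp1, Jun, Egr1, Nr4a1, Ier2 and Btg2. Arc passed in sample 1 alone, and Junb and Fosb passed in neither sample. By probe set the count was 8 of 12, against 29.8% of all probe sets that are not controls. At the 99th percentile of the same organ genes (82.1 in sample 1 and 60.9 in sample 2) the count was 4, namely Fos, Dusp1, Jun and Egr1, against 22.8% of named genes. The list was chosen with its values known, and these shares describe the 2 arrays only.

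**Figure D1:**
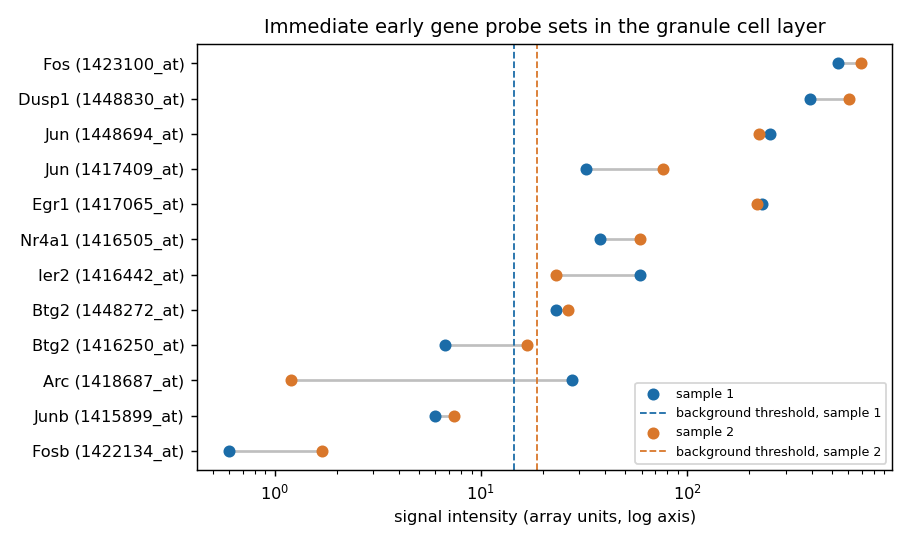
Signal intensity (horizontal, log axis, array units) of the 12 immediate early gene probe sets in sample 1 (blue) and sample 2 (orange), ordered by gene; a grey line joins the 2 values and dashed lines mark the background thresholds of 14.4 and 18.7. Fos, Dusp1, Egr1 and 1 Jun probe set lie at 11.6 times the threshold or more in each sample, Fosb and Junb lie below both, and Arc has its 2 values on opposite sides.

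Fos, its relative Fosb, Jun and Dusp1 are shown here by the 200 bases before their annotated transcription start, because Fos, Jun and Dusp1 lay far above the threshold and Fosb far below it. The sequences are RefSeq's on GRCm38.p6, written 5′ to 3′ on the gene's strand, and capitals mark matches of the CRE, TATA, CCAAT, Egr and variant AP-1 motifs.
Fos, chr12:85473690-85473889, plus strand: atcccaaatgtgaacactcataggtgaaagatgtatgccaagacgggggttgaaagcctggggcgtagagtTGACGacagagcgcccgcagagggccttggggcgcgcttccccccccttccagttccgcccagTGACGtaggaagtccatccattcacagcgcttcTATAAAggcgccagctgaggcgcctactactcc
Fosb, chr7:19310046-19310245, minus strand: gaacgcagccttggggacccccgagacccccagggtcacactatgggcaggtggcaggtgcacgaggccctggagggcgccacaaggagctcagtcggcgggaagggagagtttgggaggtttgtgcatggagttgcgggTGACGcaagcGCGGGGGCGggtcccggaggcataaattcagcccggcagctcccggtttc
Jun, chr4:95052223-95052422, minus strand: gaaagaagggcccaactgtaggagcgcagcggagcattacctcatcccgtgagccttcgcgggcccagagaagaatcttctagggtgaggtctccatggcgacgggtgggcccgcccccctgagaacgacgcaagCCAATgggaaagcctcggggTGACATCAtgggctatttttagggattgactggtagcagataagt
Dusp1, chr17:26508473-26508672, minus strand: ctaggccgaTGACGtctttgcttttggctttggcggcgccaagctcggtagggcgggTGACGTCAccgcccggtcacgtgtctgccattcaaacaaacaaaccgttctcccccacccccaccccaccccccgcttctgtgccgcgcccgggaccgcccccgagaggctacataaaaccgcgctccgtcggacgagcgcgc

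RefSeq windows from 250 bases before to 50 bases after the start were taken for 7 of the 10 genes, Btg2, Dusp1, Fos, Fosb, Jun, Junb and Nr4a1. They were searched on both strands for the CRE core site TGACG, which 6 of the 7 held, against 20.8% of all 32851 windows. The full CRE TGACGTCA, which contains a core site on each strand, was found in Dusp1 and Btg2, against 1.79% of windows. Fos had core sites starting 129 and 66 bases before the start and a TATAAA box 33 bases before it. Fosb had a core site 60 bases before the start, beside an Egr motif GCGNGGGCG, which 3 of the 7 windows held (Btg2, Fosb and Nr4a1) against 5.55%. Jun held no core site. It held TGACATCA, a variant AP-1 element added to the search after the Jun sequence was seen, 45 bases before the start, against 3.62% of windows. The AP-1 motif TGANTCA (7.81% of windows) and the CArG box (1.63%) matched none of the 7. Sites more than 250 bases before the start were not searched, and no window of Egr1, Arc or Ier2 was searched. The member search left out 1 chromosome by rule, which the shares over all windows kept. The lack of a match therefore does not show that these genes lack such sites. CCAAT matched 3 (Btg2, Jun and Junb) against 37.4%, and TATAAA matched Fos and Junb against 13.6%. The Junb TATAAA match covered bases 1 to 6 from the annotated start and did not lie before it as in Fos. Fos, above the threshold in both samples, and Fosb, below it in both, each held a CRE core site within the 66 bases before the start. A match is a string of letters in this window and no measure of binding.

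**Figure D2:**
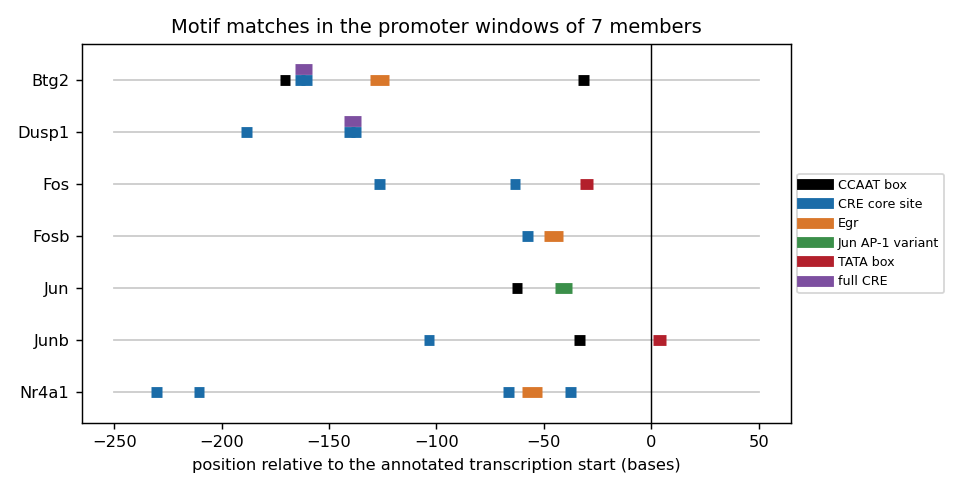
Position of each motif match relative to the annotated transcription start (horizontal, bases; vertical line at the start) in the promoter windows of 7 immediate early genes, coloured by motif; full CRE matches are drawn above the core sites they contain. Core sites occur in all genes but Jun, and the full CRE in Dusp1 and Btg2 only among these 7.

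Fos pairs with Jun proteins to form the AP-1 transcription factor and is among the most used markers of neuronal activity. Its 1 probe set gave 539 in sample 1 and 694 in sample 2, or 616 ± 109 (SD, n = 2). That is 37.4 times the threshold in sample 1 and 37.1 times in sample 2, and the samples differed by 1.29-fold, with sample 2 higher. Fosb, whose product can replace Fos in AP-1, had 0.6 and 1.7, or 1.15 ± 0.778. The values were 0.0417 and 0.0909 times the threshold. Values this low give no interpretable ratio between the samples.

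The other Fos family genes were Fosl1 and Fosl2, which encode the Fos-related antigens FRA1 and FRA2. The brighter Fosl1 probe set had 6.6 and 0.5, below the threshold in both samples. The brighter Fosl2 probe set had 27.6 and 51.4, above it in both, while the other passed in sample 1 alone (16.9 and 12.7). In the Fos family, Fos and Fosl2 were therefore detected by the rule used, and Fosb and Fosl1 were not.

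Jun, the AP-1 subunit that pairs with Fos proteins or with itself, had 2 probe sets that did not behave alike. Probe set 1448694_at had 252 and 223 (237 ± 20.7), 1.13-fold higher in sample 1. Probe set 1417409_at had 32.4 and 76.1 (54.3 ± 30.9), 2.35-fold higher in sample 2. Both were above the threshold in both samples, and they differed in which sample was higher. Junb, whose protein often opposes Jun in AP-1, had 6 and 7.4 (6.7 ± 0.990), 0.417 and 0.396 times the threshold. Jund, the Jun family member that is present without stimulation in many cells, had 727 and 538 (633 ± 134) on its brighter probe set and 10.1 and 0.7 on the other.

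Egr1, also known as Zif268, binds GC-rich promoter elements and is induced through SRF. Its 1 probe set had 229 and 217 (223 ± 8.27), 15.9 and 11.6 times the threshold, and the samples were 1.05-fold apart. The 3 other Egr genes were below the threshold on every probe set in both samples. Egr2, known for its part in Schwann cell myelination, had 0.2 and 4 on the probe set that represents it. Egr3 had 11.2 and 1.7. Egr4 had 3.5 and 16.3. Egr1 was thus the 1 of 4 Egr genes detected here.

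Nr4a1, or Nur77, is an orphan nuclear receptor induced by calcium signalling. It had 37.7 and 58.7 (48.2 ± 14.8), 2.62 and 3.14 times the threshold, and 1.56-fold higher in sample 2. Its relatives Nr4a2 (Nurr1) and Nr4a3 (NOR1) were above the threshold by their brightest probe sets, with 613 and 743 for Nr4a2 and 397 and 363 for Nr4a3. The probe sets of each disagreed. Of the 6 for Nr4a2, 3 passed in both samples, and 1433423_at had 0.5 and 11.5. Of the 3 for Nr4a3, 1 passed, and 1421079_at had 0.5 and 0.7. Nr4a1 has 1 named probe set, so no second measurement of it was available.

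**Figure D3:**
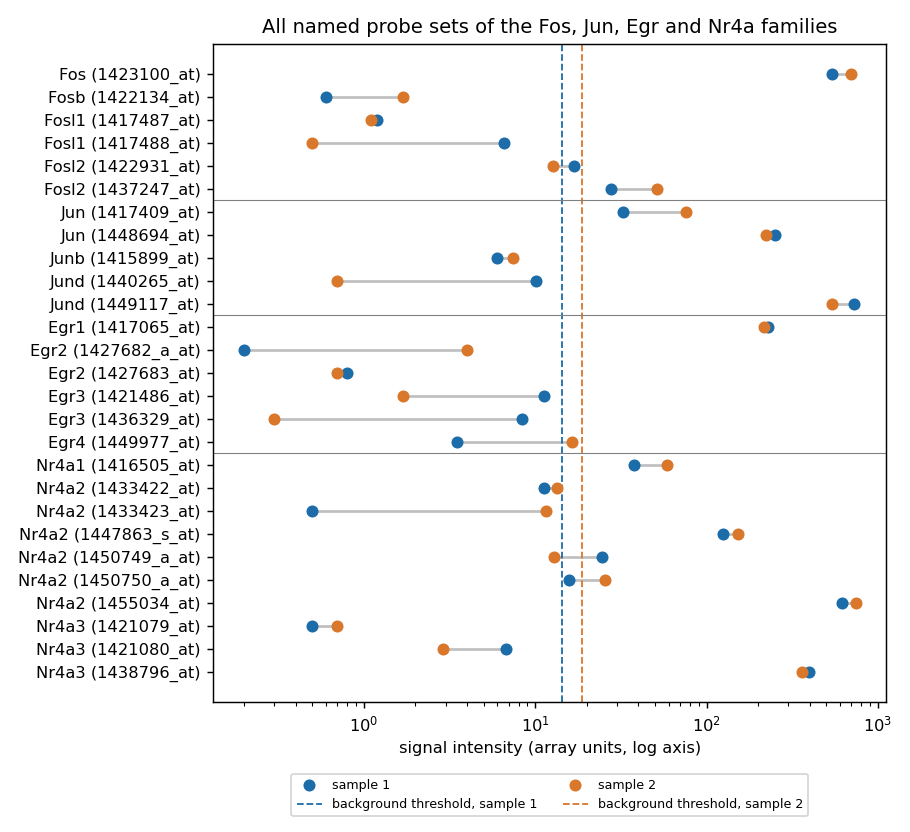
Signal intensity (horizontal, log axis, array units) of every named probe set of the Fos, Jun, Egr and Nr4a families, separated by horizontal lines, in sample 1 (blue) and sample 2 (orange), with the thresholds of 14.4 and 18.7 dashed. Each family has at least 1 probe set above both thresholds and at least 1 below both, and for Jund, Nr4a2 and Nr4a3 probe sets of 1 gene lie on both sides.

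The effector genes, too, lay on both sides of the threshold. Dusp1, or MKP-1, removes the activating phosphates from MAP kinases and so limits the signal that induces it. It gave 392 in sample 1 and 607 in sample 2 (499 ± 152), 27.2 and 32.4 times the threshold, and 1.55-fold higher in sample 2. Among other dual-specificity phosphatase genes, Dusp5 had 195 and 154 and Dusp6 had 18.9 and 25.1, both above the threshold. Dusp4 was below it with 3.8 and 0.3.

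Arc encodes a postsynaptic protein that takes part in AMPA receptor endocytosis, and its RNA travels to active dendrites. It had 27.7 in sample 1 and 1.2 in sample 2, that is 1.92 times the threshold in one and 0.0642 times in the other. No other member had its samples on opposite sides. The deposited values carry no detection calls, and with 1 probe set and 1 sample on each side this difference has no check. The call of Arc rests on sample 1.

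Ier2, a small nuclear protein induced by growth factors, had 58.8 and 23.1 (41.0 ± 25.2). It was above the threshold in both samples, 4.08 times and 1.24 times, and 2.55-fold higher in sample 1. Of other genes with an Ier name, Ier3 (34.9 and 36.7) and Ier5 (36 and 48.3) passed in both samples by their brightest probe sets. Ier5l (2 and 0.5) passed in neither. The call of Ier5 rests on 1417612_at alone. Its probe sets 1417613_at (0.9 and 1.4) and 1460009_at (3.5 and 4.8) were below the threshold in both samples.

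Btg2, or TIS21, belongs to the BTG and TOB proteins, which bind the CCR4-NOT deadenylase and slow the cell cycle, and it is known for its part in cerebellar granule precursor differentiation. Probe set 1448272_at had 23.2 and 26.5 (24.9 ± 2.33), 1.61 and 1.42 times the threshold. Probe set 1416250_at had 6.7 and 16.7 (11.7 ± 7.07), below it in both samples. Btg2 was the 1 of the 2 genes with several probe sets that had them on both sides of the threshold. With the mean of its probe sets Btg2 did not pass, and 6 of the 10 genes did.

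Between the samples, 5 of the 8 member probe sets above the threshold in both were higher in sample 2 and 3 were higher in sample 1. The median log2 difference, sample 1 minus sample 2, was -0.28 over these 8, beside -0.078 over all 13420 probe sets above the threshold in both. At least 2-fold higher in sample 1 was 1 member probe set, that of Ier2, against 5.36% of all such probe sets. At least 2-fold higher in sample 2 was 1, Jun 1417409_at, against 8.09%. Both had a mean intensity from 20 to 100, where 19.6% of probe sets were at least 2-fold apart in one direction or the other. With log2(value + 16) neither was. The members of 100 or more, Fos, Dusp1, Egr1 and Jun 1448694_at, were all within 2-fold, and 6.88% of the probe sets from 100 to 1000 were not. Their log2 differences of -0.36, -0.63, 0.08 and 0.18 stand beside an SD of 0.54 over the probe sets of that intensity. Dusp1, at -0.63, lay just beyond 1 SD and the others lay within it. How many of all probe sets of that intensity lie beyond 1 SD was not counted, so this does not set Dusp1 apart.

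**Figure D4:**
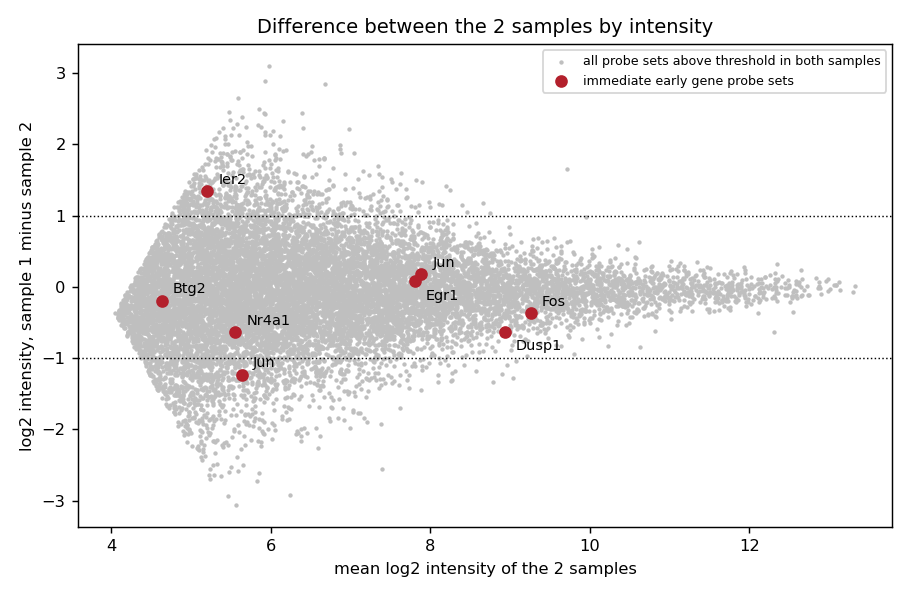
Log2 difference between the samples (vertical, sample 1 minus sample 2) against the mean log2 intensity (horizontal) for the 13420 probe sets above the threshold in both samples (grey) and the 8 immediate early gene probe sets among them (red); dotted lines mark 2-fold. The spread narrows as intensity grows, and only Ier2 and 1 Jun probe set of these 8 lie beyond 2-fold.

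Other immediate early genes were described from a list of 47, of which 46 were measured and 27 were above the threshold in both samples. The brightest were Rheb, the GTPase that activates mTORC1 (1443 and 1353), the apoptosis regulator Mcl1 (997 and 1238), the NF-κB inhibitor Nfkbia (1214 and 911), Nr4a2, Jund and the kinase Sgk1 (495 and 488). Several of these have other known roles and are also present without stimulation. The synaptic scaffold gene Homer1 (411 and 184) and the DNA damage response gene Gadd45b (274 and 386), both named here after their values were seen, also passed. The neuronal activity factor Npas4 did not (12.7 and 10.4), nor did the RNA decay factor Zfp36 (10 and 1.5) or Myc (6.8 and 0.8), named on the same terms. The 2 lowest by mean log2 intensity were Ier5l and Egr2. Their median log2 difference over the 27 was -0.28.

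Of 16 genes that respond to activity later, 9 passed. They included the neurite outgrowth gene Nrn1 (1277 and 1152), the pentraxin Nptx1 (369 and 391), the G protein regulator Rgs2 (261 and 268), the granin Scg2 (185 and 141), the enkephalin precursor Penk (138 and 155) and the protease Plat (82.1 and 161). The neurotrophin Bdnf had 90.5 and 89.5, nearly equal, and was named after its values were seen. The activin subunit Inhba (1.1 and 0.6) and the pentraxin Nptx2 (1.2 and 0.3) were the lowest.

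The signalling genes upstream were mostly detected, 23 of 28 measured. The calmodulin-dependent kinase kinase Camkk2 had 3009 and 3188, and its target Camk4, a CREB kinase abundant in granule neurons, had 2497 and 2458. The protein kinase A subunit Prkaca had 1207 and 1276, the ribosomal S6 kinase Rps6ka3 had 737 and 610, the MAP kinase kinase Map2k1 had 296 and 272, and Mef2a, a transcription factor of neuronal activity programmes, had 195 and 348. The promoter-bound factors Creb1 (243 and 189) and Srf (67.9 and 63.1), named after their values were seen, were above the threshold too. The forebrain kinase Camk2a (13.1 and 5.6) and the SRF coactivator Mrtfa (11.2 and 3.4) were lowest.

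Of 15 AP-1 partners and kinases 11 passed, among them the JNK gene Mapk10 (3610 and 3889), Atf4 (1053 and 1189), Jund, Atf2 (585 and 628), Maf (511 and 698) and Jdp2 (157 and 245), whereas Fosl1 and Batf (0.6 and 0.5) did not. Of 7 partners of Egr and Nr4a proteins 5 passed, with the Egr corepressor Nab1 at 340 and 505 and its relative Nab2 at 38.8 and 61. The retinoid receptor Rxra (13.1 and 15.6) and Rxrg (0.3 and 0.8) did not. Of 7 measured JNK and p38 MAP kinase genes, listed together as Dusp1 substrates, 6 passed, with Mapk14, or p38 alpha, at 214 and 267. Whether Dusp1 acts on each of them was not tested.

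The relatives and partners of Btg2 were nearly all detected, 12 of 13. Btg1 had 1907 and 2101, and the CCR4-NOT subunits Cnot2, Cnot7 and Cnot6 had 1670 and 1757, 1098 and 1375, and 755 and 1003. Tob1 had 482 and 431 on its brighter probe set and 7.7 and 0.8 on the other. Btg4, known from oocytes, had 6.5 and 1.1. Of 14 genes for partners of Arc at the synapse 12 passed, led by the dynamin Dnm3 (873 and 748), Wasf1 (595 and 663), the AMPA receptor subunit Gria2 (506 and 726) and the clathrin adaptors Ap2a2 (402 and 437) and Ap2m1 (236 and 300). The scaffold gene Dlg4 (14.3 and 12.5) and Gria1 (2.8 and 14.2) did not. Over the 8 lists, which share some genes, 99 of 139 measured genes passed (71.2%), beside 43.8% of all named genes, and the lists mostly hold genes known to be expressed in neurons.

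**Figure D5:**
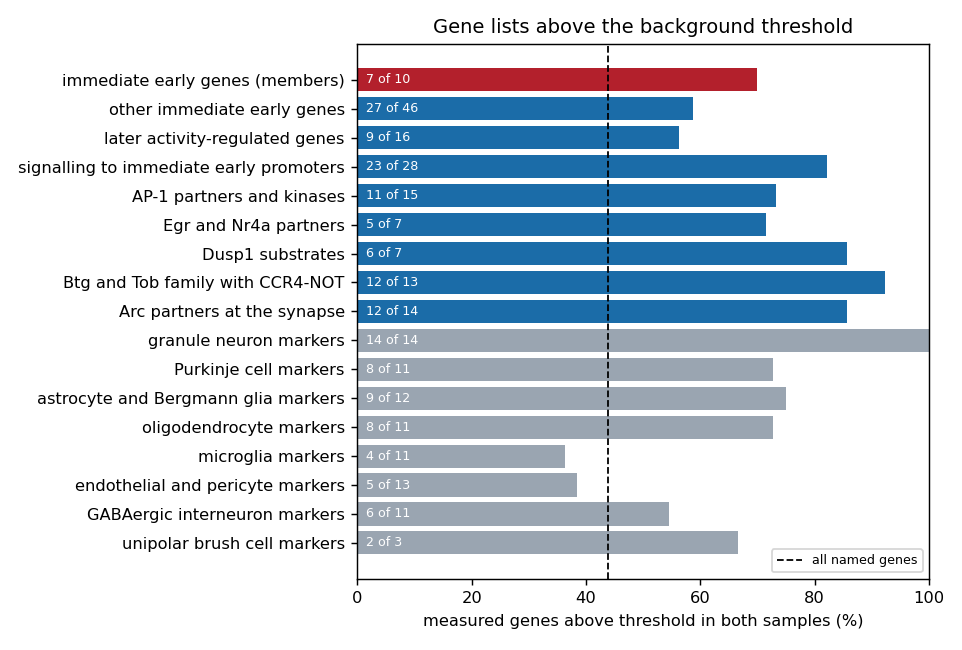
Share of measured genes above the background threshold in both samples (horizontal, %) for the immediate early genes (red), 8 lists of related genes (blue) and 8 lists of cell type markers (grey), with the counts in the bars; the dashed line is the 43.8% of all named genes. The immediate early genes stand at 7 of 10, and the lists for microglia and for endothelial cells and pericytes lie left of the line.

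The layer holds other cells whose immediate early transcripts these arrays also collect. In such bulk samples, fewer cells of a type and less RNA per cell cannot be told apart. Of 14 granule neuron markers all passed, with Gabra6 at 8189 and 8327, Zic1 at 6792 and 6716 and Cbln1 at 4548 and 4389. Their summed intensity was 37975 in sample 1 and 39533 in sample 2. Some markers of other cells passed as well. In samples 1 and 2 the sums were 1367 and 1827 for Purkinje cells (8 of 11 genes above the threshold), 5731 and 5593 for astrocytes and Bergmann glia (9 of 12), and 8231 and 7884 for oligodendrocytes (8 of 11). They were 632 and 925 for microglia (4 of 11), 928 and 908 for endothelial cells and pericytes (5 of 13), 826 and 738 for GABAergic interneurons (6 of 11) and 1012 and 969 for unipolar brush cells (2 of 3). No marker of these lists was listed at 0, but only 2 values of sample 1 and 1 of sample 2 were, so this does not show presence. The microglial integrin Itgam (0.5 and 0.3) and the endothelial Pecam1 (0.8 and 0.5) were lowest in their lists, while Csf1r (251 and 411) and Itm2a (380 and 395) were the highest. The sums are carried by the brightest genes, as in the oligodendrocyte list by Mbp (5722 and 5133). The unipolar brush cell sum is mostly Calb2 (913 and 854), and whether that signal comes from these cells was not tested. In that list Eomes had 94.5 and 115, and Lmx1a (4.8 and 0.3) did not pass. Gene by gene, among those above the threshold in both samples, the lists were mixed in direction. Higher in sample 2 were 6 of 8 Purkinje genes (median log2 difference -0.44), with Pvalb (107 and 52.8) and Calb1 (210 and 197) the other way. The same held for 3 of 4 microglial genes (-0.62), with Tyrobp (56.3 and 25.9) the other way, and for 5 of 8 oligodendrocyte genes (-0.23). Higher in sample 1 were 5 of 6 interneuron genes (0.27) and 5 of 9 astrocyte and Bergmann glia genes (0.072). The granule neuron markers were split, 7 and 7 (-0.0039). Genes such as Pvalb were named after their values were seen. The part of any of these cells in the members' intensities was not tested.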

How the data were processed

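Total RNA of 2 granule cell layer samples was hybridized to Affymetrix arrays. The intensity values that the authors deposited, 1 for each probe set on each array, are linear signals from GCOS, the Affymetrix software, per the submitters' processing notes. The sources used here do not give its version, algorithm or scaling target. Medians were 7.9 and 8.3, and values were used as deposited. The 3′-primed 2-cycle amplification lowers signal from probes far from the 3′ end. The number of arrays limits the precision.

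Of 45101 probe sets, 64 were controls. The platform annotation gave 34958 probe sets 1 symbol and 932 several, and 9211 stayed unnamed here; 34754 matched RefSeq by gene ID. Zeros (2 and 1 values) were set to 0.1 before log2. A gene was its brightest probe set over both samples. The members, the gene lists and the organ genes were chosen with earlier results of these data known. Named were all member probe sets, the Fos, Jun, Egr and Nr4a families, up to 6 highest and 2 lowest genes of each related list and up to 3 highest and 1 lowest of each marker list. Genes that share a family or a name with Dusp1, Ier2 or Btg2 were also named. Likeness of pattern was not ranked over 2 arrays. Alternatives were other thresholds, an olfactory receptor background (38 genes), 2 scalings, log2(value + 16), no filter, gene means over probe sets, omission of _x_at and _s_at probe sets, and each sample alone. Work used Python 3.11.15, pandas 2.3.3, numpy 2.4.6 and matplotlib 3.10.9, and the fold calculation was checked on simulated data.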

Additional observations from a re-analysis of the deposited data

How the results depend on the processing

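No paired analysis was possible because there was 1 group. Fos, Dusp1, Jun and Egr1 passed under every threshold, scaling and probe set choice that was run, and in each sample alone. Without sample 1 or sample 2 the member genes above the threshold numbered 7 to 8, the eighth being Arc. The strictest setting, the 99th percentile, left 4 member genes, 4 member probe sets and 57 of 139 genes of the related lists. Of all named genes 22.8% passed it. It left 14 of 46 other immediate early genes, 14 of 28 signalling genes and 7 of 15 AP-1 partners and kinases. It also left 3 of 7 Egr and Nr4a partners, 2 of 7 JNK and p38 kinase genes, 7 of 13 Btg, Tob and CCR4-NOT genes and 7 of 14 Arc partners. Of the later activity-regulated genes it left 6 of 16. Of the markers it left all 14 for granule neurons, 6 of 11 for Purkinje cells and 7 of 12 for astrocytes and Bergmann glia. For oligodendrocytes 5 of 11 remained, for microglia 2 of 11 and for endothelial cells and pericytes 4 of 13. For GABAergic interneurons 3 of 11 remained, and for unipolar brush cells 2 of 3. The olfactory receptor background gave 8 of 13 for endothelial cells and pericytes. That percentile lies between the 2 brightest organ genes. The counts of members that exceeded 2-fold toward sample 1 and toward sample 2 were 0 and 0 at the 99th percentile and with log2(value + 16), 2 and 3 with no filter, and 1 and 0 with gene means over probe sets. Those added with no filter were Arc, Fosb and Btg2 1416250_at, none above the threshold in both samples. Shares of all probe sets were not counted at these settings, so these counts do not set the members apart. The members' median log2 difference stayed between -0.33 and -0.14. With log2(value + 16), which shrinks differences of dim probe sets by construction, the differences were 1.35 for Arc, -0.53 for Btg2 1416250_at and -0.093 for Fosb. Over all pairs of a result and an alternative, 181 of the counts and median differences and 57 of the single probe set values stayed close, meaning within 1.5 times for a count, within the SD of 0.66 over all probe sets for a log2 difference, and within the SD of the 2 samples for an intensity. The other 21 counts and median differences and 3 single probe set values moved further. Intensities were rerun only under the 2 scalings, which hardly change a mean of 2 samples, so their closeness was largely set in advance. The SD of 0.66 exceeds the size of the members' median difference of -0.28, so even a change of sign could count as close. The tally is therefore no strong check. Members below 100 are limited by their closeness to background.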

Other observations

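Some genes of the related lists differed more between the samples than any member above the threshold in both. They were picked after their values were seen. Mapk12, or p38 gamma, had 274.5 in sample 1 and 38.1 in sample 2, a log2 difference of 2.85. The CCR4-NOT gene Cnot10 had 86.4 and 19.1 (2.18), the polo-like kinase Plk2, itself an activity-regulated gene, 15.5 and 61.3 (-1.98) and the RAF kinase Braf 66.2 and 215 (-1.70). Like Arc, with its values on opposite sides of the thresholds, the mRNA decay factor Zfp36l2 had 0.700 and 42.5, but it passed in sample 2 alone. Each difference rests on 1 sample on each side and has no replicate check. Cnot10 in sample 2 and Plk2 in sample 1 were only 1.02 and 1.08 times the threshold. These genes of the related lists are given by their brightest probe sets, and their other probe sets were not compared. How many of all probe sets differed this much was not counted.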
